A study of Mus musculus with 16 samples.

Results

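Integrins and other adhesion molecules of the stem cell niche were followed across 2 fractions of mouse haematopoietic stem cells and 2 genotypes. The members are 34 listed genes: 13 integrin alpha subunits, 6 beta subunits, 2 intracellular integrin activators, 4 hyaluronan, thrombospondin and selectin receptors and ligands, 6 junctional and immunoglobulin-family molecules, and a last set of 3 made of the cadherins Cdh2 and Cdh5 and the guidance receptor Robo4. Of these, 33 had a probe among the 25697 probes of the deposited table, and 27 rose above background on at least 4 arrays and were tested among 11850 features. Itgal was not analysed here. Each gene is represented by its brightest probe above background, and since probes differ in how strongly they bind, levels are compared between groups for a gene and never between genes.

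The 16 Illumina bead arrays fell into 4 groups of 4, with RNA of 2 pooled C57Bl/6 mice on every array. Control mice were IFNgamma-/-, and CD70TG mice were IFNgamma-/- and carried a CD70 transgene, so that both genotypes lacked interferon gamma. CD70 is the ligand of the TNF-receptor family member CD27, which haematopoietic progenitors carry. Lineage-negative, c-Kit-positive, Sca-1-positive bone marrow cells were taken as a fraction labelled CD34-, described as long-term stem cells, and a fraction labelled CD34+, described as short-term stem cells. The staining protocol in the labels writes CD34- for both, and the 2 fractions are named here as the sample titles name them. Neither the ages of the mice nor the promoter that drives the transgene is stated in the sources used.

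Integrins are heterodimers of an alpha and a beta chain that bind matrix proteins, or counter-receptors on other cells, and that must be switched to a high-affinity state from inside the cell by talins and kindlins. Stem cells in the bone marrow use them, together with CD44, selectins and junctional molecules, to lodge beside stromal and endothelial cells, to stay there and to leave for the blood. Beta-2 chains are largely restricted to leukocytes, and beta-7 chains pair with alpha-4 and alpha-E in lymphoid and mast cell lineages. Robo4, a receptor known from endothelium, is also made by stem cells and takes part in their anchoring in mouse marrow.

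Array medians lay between 6.43 and 6.53 on the deposited log2 scale, and 50.4% to 58.1% of probes were above background. Correlations between arrays of a group ran from 0.986 to 0.996. The arrays control CD34+ replicate 4 and CD70TG CD34- replicate 2 stood apart from their groups on the first principal component, which held 50.6% of the variance. The probe for Cd34, the gene that names the fractions, differed between the CD34+ and CD34- arrays by -0.17 in control mice (95% interval -0.44 to 0.09) and by -0.09 in CD70TG mice (-0.36 to 0.17). Neither difference passed the test. Both estimates were below 0, so the probe did not show higher Cd34 RNA in the arrays labelled CD34+ and did not bear out the labels. Cell markers moved with the groups. The mean level of 13 monocyte and macrophage markers was 7.54 to 7.72 in control and 8.63 to 8.99 in CD70TG arrays of the CD34- fraction, and 6.98 to 7.07 and 6.97 to 7.16 in the CD34+ fraction. The mean level of 11 long-term stem cell markers was 8.65 to 8.77 and 8.68 to 8.82 in the control fractions and 8.21 to 8.28 and 8.16 to 8.21 in the CD70TG fractions. A probe discordance index, which places each array on the main axis along which paired probes of 1336 other genes disagree (49.9% of that variance, scaled to an SD of 1), averaged -1.19 ± 0.414 (SD, n = 4) in control CD34- arrays, 0.719 ± 0.628 in CD70TG CD34- arrays, -0.386 ± 0.754 in CD34+ arrays of control mice and 0.856 ± 0.345 in those of CD70TG mice. Its group means thus differ between the genotypes. No batch is named in the sources used here. The p-values measure the spread between the arrays of a group, each a pool, with the 2 fractions treated as unpaired.

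**Figure D1:**
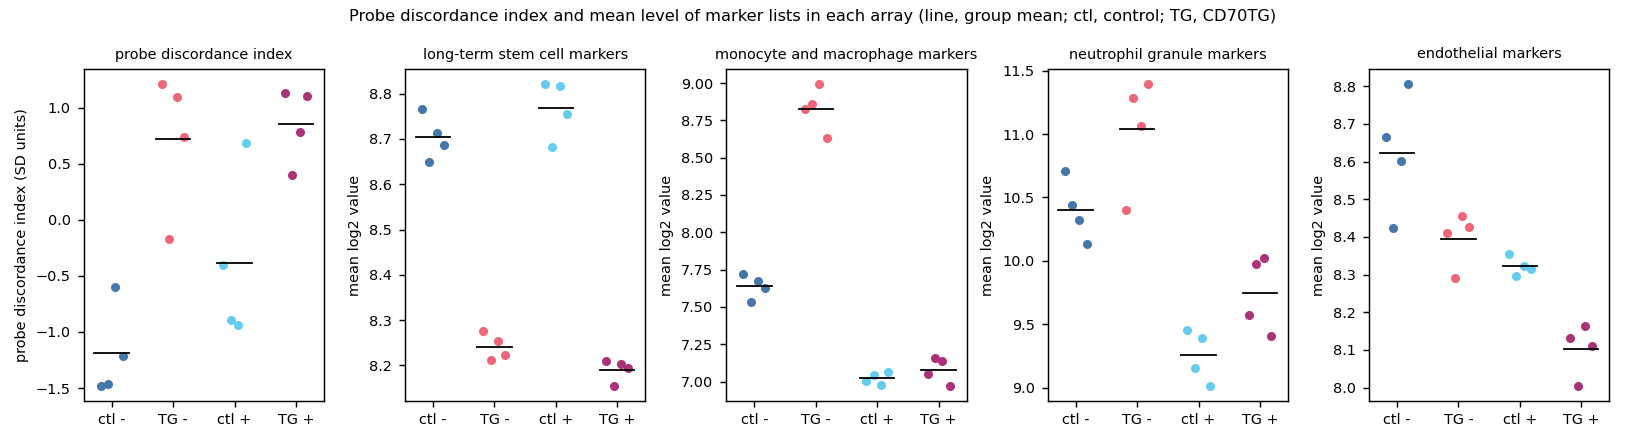
Each point is 1 array, grouped by genotype (ctl, control; TG, CD70TG) and fraction (- or +), and the line is the group mean. The first panel shows the probe discordance index in SD units and the others the mean log2 value of a marker list. The 4 CD70TG CD34- arrays lie at 8.63 to 8.99 for macrophage markers, above all other arrays.

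Against control, the transgenic CD34- fraction had 10 of 27 members past the test (37%, against 27.8% of all 11850 features). Higher were Itgb1, Itgb2, Itgax and Cd44, 14.8% of the members against 16% of all features. Lower were Itga3, Itgae, Itgb4, Itgb7, Fermt3 and Robo4, 22.2% against 11.8%. The median difference over the 27 members was 0.01 against 0.02 over all features. All 10 of these calls were lost in a fit that included the probe discordance index. For Itga3 (-0.42, SE 0.18) and Itgax (0.25, SE 0.10) the difference in that fit was larger than without the index, and so was the SE. The test was limma's moderated test on 4 group means, with Benjamini-Hochberg adjustment over all features and a threshold of 0.05, and differences are given in log2 units with their SE.

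In the CD34+ fraction, 6 of 27 members differed between the genotypes (22.2%, against 18.2% of all features). Itgax was higher (3.7% of the members against 7.59% of all features). Itgb4, Fermt3, Jam2, F11r and Robo4 were lower (18.5% against 10.6%). The median difference was -0.01 over the members and 0.02 over all features. Itgax (higher) and Itgb4, Fermt3 and Robo4 (lower) were called in both fractions, and no member was called in opposite directions.

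**Figure D2:**
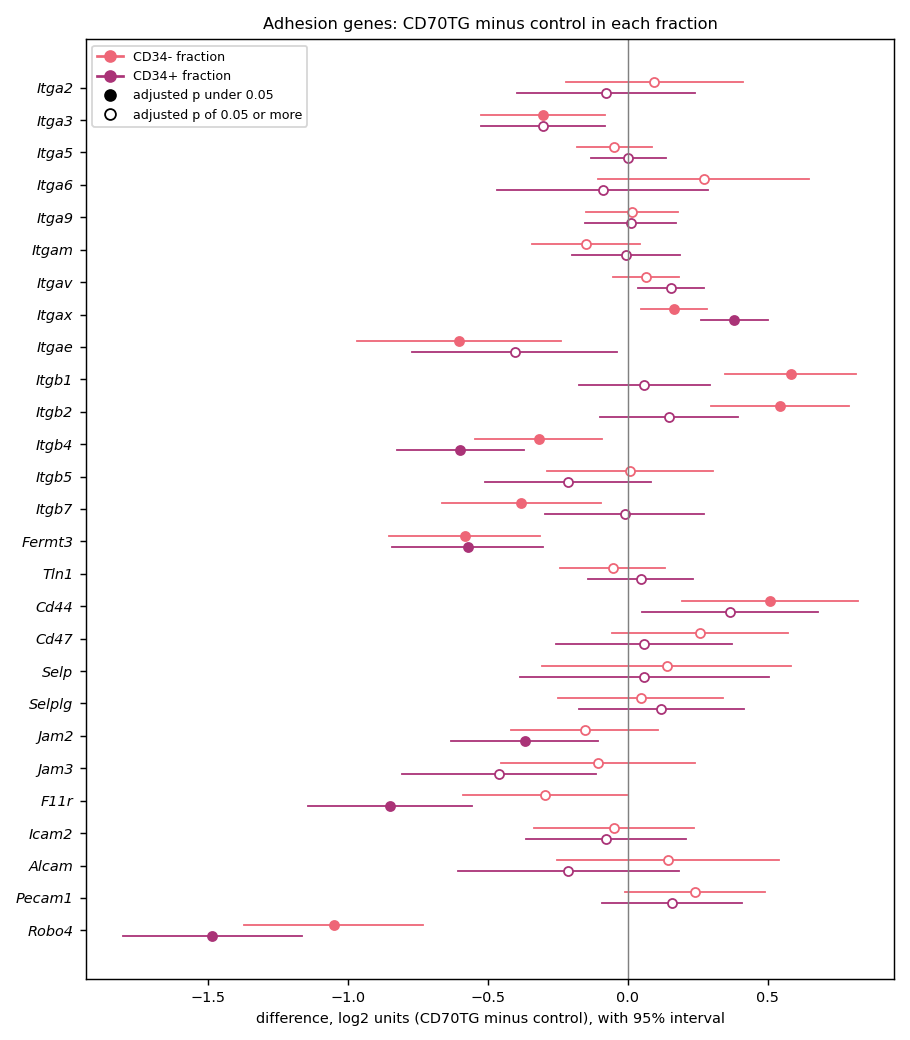
Difference between CD70TG and control arrays in log2 units for the 27 tested members, in the CD34- fraction (pink) and the CD34+ fraction (purple), with 95% intervals. Filled points passed the test. Robo4 lies furthest to the left in both fractions, at -1.05 and -1.49, and Itgb1 and Itgb2 lie to the right in the CD34- fraction, at 0.58 and 0.54.

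Robo4 had the largest genotype differences of the 27 members in both fractions. The probe read 12.25, 11.66, 12.09 and 12.29 in CD34- arrays of control mice and 10.72, 10.99, 11.04 and 11.33 in those of CD70TG mice. CD34+ arrays read 11.45, 11.68, 11.39 and 11.28 in control arrays and 9.79, 10.24, 10.01 and 9.81 in CD70TG arrays. Every CD70TG array lay below every control array of its fraction. The differences were -1.05 ± 0.15 (adjusted p = 6.11e-05) in the CD34- fraction and -1.49 ± 0.15 (adjusted p = 1.8e-06) in the CD34+ fraction, and both passed whichever single array was left out. With the index as a covariate they were -0.79 (adjusted p = 0.0662) and -1.32 (adjusted p = 0.000105). A second Robo4 probe above background on 5 of 16 arrays differed by -0.05 and 0.04, and neither difference passed among all probes. The stem cell marker list moved with Robo4. In CD70TG CD34- arrays 6 of its 11 tested genes were lower (54.5%, against 11.8% of all features). In CD70TG CD34+ arrays 7 were lower (63.6%, against 10.6%). Among them were Hoxb5 (-1.41 and -1.38) and Esam (-1.30 and -1.59). Esam and Tek stand in both the stem cell and the endothelial list. Of 11 tested endothelial markers, 5 were lower in each fraction (45.5%, against 11.8% and 10.6% of all features). In the CD34- fraction 2 were higher (18.2%, against 16%), and in the CD34+ fraction 1 (9.09%, against 7.59%). Their mean level was 8.42 to 8.80 against 8.29 to 8.46 in the CD34- fraction and 8.30 to 8.35 against 8.01 to 8.16 in the CD34+ fraction, while Sox17 was at background. The part of these markers in the Robo4 result was not tested. In bulk samples such as these, fewer cells of a type and less RNA per cell cannot be told apart.

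Robo4, Fermt3 and Itgb4 were the members lower in CD70TG arrays of both fractions. The promoters of Robo4 and Fermt3 are shown, from 250 bases before to 50 after the gene start (RefSeq, GRCm38.p6). Itgb4 had no match in the RefSeq table used, so its promoter is not shown. The RefSeq table matched 20 of the 34 members, among them Robo4 (chr9:37401722-37402021, plus strand) and Fermt3 (chr19:7019420-7019719, minus strand). Capitals mark matches on either strand to CGGAAG or AGGAAG (ETS factors), AGATAA (motif of GATA factors), TGTGGT (RUNX factors), GGGCGG (SP1) or TATAAA, the letters of the TATA box.
Robo4: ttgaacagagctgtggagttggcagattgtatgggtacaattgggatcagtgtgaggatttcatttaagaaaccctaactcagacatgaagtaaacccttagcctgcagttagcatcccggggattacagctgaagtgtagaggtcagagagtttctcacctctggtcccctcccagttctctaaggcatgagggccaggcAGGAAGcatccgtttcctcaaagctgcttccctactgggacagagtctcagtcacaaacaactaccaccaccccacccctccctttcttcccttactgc
Fermt3: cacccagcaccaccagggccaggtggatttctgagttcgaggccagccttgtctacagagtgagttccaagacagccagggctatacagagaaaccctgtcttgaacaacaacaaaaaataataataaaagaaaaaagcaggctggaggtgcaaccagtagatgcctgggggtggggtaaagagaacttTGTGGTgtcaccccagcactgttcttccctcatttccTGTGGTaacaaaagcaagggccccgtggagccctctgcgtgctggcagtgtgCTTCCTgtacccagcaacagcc
The Robo4 window held AGGAAG at base 202 and no other of the 6 motifs. The Fermt3 window held TGTGGT at bases 190 and 227 and AGGAAG, on the opposite strand, at base 279, and no matches overlapped. Among 32851 promoters of the same length, 16.9% held CGGAAG, 35.4% AGGAAG, 11.2% AGATAA, 16.8% TGTGGT, 35.7% GGGCGG and 13.6% TATAAA. The AGGAAG form was added to the search after the Robo4 sequence had been seen. A match describes the letters in these windows and says nothing of whether a factor binds there.

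Fermt3, which encodes kindlin-3, the kindlin of blood cells that switches integrins on from inside the cell, was lower in CD70TG arrays of both fractions. It read 9.45, 9.51, 8.95 and 9.43 in CD34- arrays of control mice and 8.84, 8.79, 8.56 and 8.81 in those of CD70TG mice. The CD34+ values were 9.64, 9.42, 9.36 and 9.50 in control arrays and 8.84, 8.84, 9.14 and 8.80 in CD70TG arrays. The groups did not overlap in either fraction, although control CD34- replicate 3 and CD70TG CD34+ replicate 3 lay nearest to the other genotype. The differences were -0.58 ± 0.13 (adjusted p = 0.00233) and -0.57 ± 0.13 (adjusted p = 0.00402), and they passed whichever single array was left out. With the index they were -0.44 (adjusted p = 0.301) and -0.48 (adjusted p = 0.0921). Tln1, which encodes the other activator, talin-1, lay between 6.11 and 6.60, was above background on 7 of 16 arrays and passed in no comparison.

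Among the beta subunits, Itgb4 was lower in CD70TG arrays of both fractions. Itgb4 pairs with alpha-6 to form a laminin receptor best known from the hemidesmosomes of epithelia. Its values were 7.75, 7.77, 7.88 and 8.05 in CD34- arrays of control mice and 7.32, 7.69, 7.49 and 7.69 in those of CD70TG mice. For CD34+ arrays they were 8.08, 7.83, 8.04 and 7.91 in control arrays and 7.29, 7.42, 7.50 and 7.26 in CD70TG arrays. The genotypes did not overlap in either fraction, and the gap was narrow in the CD34- fraction. The differences were -0.32 ± 0.11 (adjusted p = 0.0343) and -0.60 ± 0.11 (adjusted p = 0.000681). The call in the CD34- fraction was lost without control CD34- replicate 3 (-0.31, adjusted p = 0.0626), control CD34- replicate 4 (-0.26, 0.11), CD70TG CD34- replicate 1 (-0.24, 0.13) or CD70TG CD34- replicate 3 (-0.30, 0.089). The call in the CD34+ fraction passed whichever array was left out, and with the index (-0.50, adjusted p = 0.0312). A dimmer Itgb4 probe differed by -0.16 and -0.03 and did not pass. Its partner Itga6, an alpha chain of laminin receptors present on stem cells, did not pass in any comparison; its values ran from 7.09 to 8.11, with differences of 0.27 (95% interval -0.11 to 0.65) in the CD34- fraction and -0.09 (-0.47 to 0.29) in the CD34+ fraction.

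Itgb1, the common beta chain that pairs with many alpha chains and is required for stem cells to home to marrow, was higher in the transgenic CD34- fraction. The values were 7.63, 7.68, 7.64 and 7.53 in CD34- arrays of control mice and 8.32, 8.22, 8.24 and 8.03 in those of CD70TG mice. All 4 CD70TG arrays exceeded all control arrays, by 0.58 ± 0.11 on average (adjusted p = 0.000813), and the call passed whichever array was left out. Among CD34+ arrays the values were 7.89, 7.86, 7.91 and 8.36 in control arrays and 8.0, 8.12, 8.04 and 8.09 in CD70TG arrays. There the groups overlapped through control CD34+ replicate 4, and the difference was 0.06 (95% interval -0.18 to 0.29). The second Itgb1 probe, above background on 11 of 16 arrays, differed by -0.02 in the CD34- fraction (adjusted p = 0.844 among all probes). With the index the difference of the main probe was 0.32 (adjusted p = 0.386).

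Itgb2, the beta chain of the leukocyte integrins, was also higher in the transgenic CD34- fraction. It read 7.48, 7.33, 7.40 and 7.48 in CD34- arrays of control mice and 8.12, 7.71, 8.03 and 8.0 in those of CD70TG mice. The groups did not overlap, and the difference was 0.54 ± 0.12 (adjusted p = 0.00211) and passed whichever array was left out. The CD34+ arrays read 7.37, 7.20, 7.18 and 7.69 in control mice and 7.49, 7.40, 7.69 and 7.45 in CD70TG mice. These overlapped, with a difference of 0.15 (95% interval -0.10 to 0.39). The CD34- difference was 0.10 with the index (adjusted p = 0.827). Macrophage markers moved with Itgb2: 11 of 13 tested were higher in CD70TG CD34- arrays (84.6%, against 16% of all features). They were led by Mrc1 (1.85 ± 0.12), Adgre1 (1.77 ± 0.13) and C1qc (1.05 ± 0.08), while Cd5l, a marker of tissue macrophages, was at background. Of 11 neutrophil granule markers, 6 were higher (54.5%), among them S100a8 (0.90 ± 0.18). Neutrophil marker levels averaged 10.1 to 10.7 in control and 10.4 to 11.4 in CD70TG CD34- arrays. The part of these markers in the Itgb2 result was not tested.

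The alpha partners of Itgb2 moved unequally. Itgam, the alpha chain of Mac-1 on myeloid cells, lay between 6.09 and 6.62 and passed in no comparison, with a difference of -0.15 (95% interval -0.34 to 0.04) in the CD34- fraction. Itgax, the alpha chain of p150,95 on dendritic cells and macrophages, read 6.28, 6.19, 6.24 and 6.23 in CD34- arrays of control mice and 6.27, 6.48, 6.43 and 6.42 in those of CD70TG mice. No control array of either fraction was above background for Itgax. It therefore entered the test only through CD70TG arrays, 3 of the CD34- and 4 of the CD34+ fraction. The filter thus drew on the genotype where Itgax was called higher. With no filter on dim probes the call in the CD34- fraction was lost and that in the CD34+ fraction was kept. The CD34+ arrays gave 6.28, 6.23, 6.25 and 6.22 in control arrays and 6.53, 6.61, 6.74 and 6.62 in CD70TG arrays. All 4 CD70TG CD34+ arrays were above background and above all control arrays, at least 1.21-fold higher (adjusted p = 0.000103; means 6.25 and 6.63). This bound sets the mean of the bright group against, per array, the higher of the dim value and the lowest value above background. The CD34+ call passed whichever array was left out and with the index (0.44, adjusted p = 0.000872). In the CD34- fraction the groups overlapped at CD70TG CD34- replicate 1, the means were 6.24 and 6.40 (adjusted p = 0.0365), and no fold is given since the bound is below 1. That call was lost without control CD34- replicates 2, 3 or 4 or CD70TG CD34- replicates 2, 3 or 4, with adjusted p from 0.0623 to 0.0976. Macrophage marker levels in the CD34+ fraction overlapped between the genotypes (6.98 to 7.07 and 6.97 to 7.16). Of the 13, 2 were higher, among them Adgre1 (0.53 ± 0.13), and 2 lower, Spic and Axl (15.4% each, against 7.59% and 10.6% of all features). Of 11 neutrophil granule markers 4 were higher there (36.4%, against 7.59%), and the part of these genes in the Itgax result was not tested.

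Itgb7 and Itgae, which form the alpha-E beta-7 receptor for E-cadherin, were both lower in the transgenic CD34- fraction. Itgb7 read 9.46, 9.07, 9.37 and 9.59 in CD34- arrays of control mice and 8.77, 9.09, 9.0 and 9.11 in those of CD70TG mice. The groups overlapped at control CD34- replicate 2, and the difference was -0.38 ± 0.14 (adjusted p = 0.0437). The Itgb7 call was lost when any of 7 arrays was left out (control CD34- replicates 1, 3 and 4, CD70TG CD34- replicates 1 and 3, control CD34+ replicates 2 and 3), with adjusted p from 0.0501 to 0.144. Among CD34+ arrays Itgb7 read 9.54, 9.36, 9.23 and 9.14 in control arrays and 9.11, 9.45, 9.52 and 9.14 in CD70TG arrays. These overlapped throughout, with a difference of -0.01 (95% interval -0.30 to 0.27). Itgae read 7.83, 7.46, 6.61 and 7.38 in CD34- arrays of control mice and 6.80, 6.45, 6.87 and 6.76 in those of CD70TG mice. Control CD34- replicate 3 fell among the CD70TG arrays and the other 3 control arrays lay above them. The Itgae difference was -0.60 ± 0.17 (adjusted p = 0.0143), and it was lost without control CD34- replicate 1 (-0.43, adjusted p = 0.058). Itgae values in the CD34+ fraction were 6.89, 7.15, 7.28 and 6.96 in control arrays and 6.72, 6.62, 6.62 and 6.70 in CD70TG arrays. They did not overlap, but the difference of -0.40 did not pass (adjusted p = 0.115). A second Itgae probe differed by -0.41 in the CD34- fraction (adjusted p = 0.0399 among all probes). With the index the CD34- differences were -0.14 for Itgb7 (adjusted p = 0.837) and -0.35 for Itgae (0.59). Of 7 tested B cell markers, 4 were lower and none higher in CD70TG CD34- arrays (57.1% lower, against 11.8% of all features). Their mean level was 7.16 to 7.38 in control and 6.88 to 7.10 in CD70TG CD34- arrays. Of 7 tested T and NK cell markers, 1 was higher (14.3%, against 16% of all features) and none lower (against 11.8%). The part of lymphoid markers in the Itgb7 and Itgae results was not tested. The alpha-4 partner of Itgb7, Itga4, which joins Itgb1 in the receptor for Vcam1, was at background on all 16 arrays (5.69 to 6.08).

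Itga3, an alpha chain of laminin receptors that pairs with Itgb1, was a dim gene with a small difference. It read 6.54, 6.36, 6.81 and 7.07 in CD34- arrays of control mice and 6.36, 6.33, 6.49 and 6.39 in those of CD70TG mice. The groups overlapped, with control CD34- replicates 3 and 4 above all CD70TG arrays. The difference was -0.30 ± 0.11 (adjusted p = 0.0382). The call was lost without control CD34- replicate 3 (-0.26, adjusted p = 0.0964), control CD34- replicate 4 (-0.18, 0.142), or CD70TG CD34- replicate 1 (-0.29, 0.0854), 2 (-0.28, 0.074) or 4 (-0.30, 0.0658). Among CD34+ arrays Itga3 read 6.42, 6.48, 6.44 and 6.42 in control arrays and 6.20, 6.09, 6.24 and 6.02 in CD70TG arrays, none of the latter above background. Those groups did not overlap, and the difference just missed the threshold (adjusted p = 0.053).

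Cd44, the hyaluronan receptor by which progenitors roll and lodge in marrow, read 10.12, 9.99, 9.82 and 10.28 in control CD34- arrays. In CD70TG CD34- arrays it read 10.58, 10.33, 10.82 and 10.52, all above every control array. The difference was 0.51 ± 0.15 (adjusted p = 0.0165), and it was lost without control CD34- replicate 3 (0.43, adjusted p = 0.0534) or CD70TG CD34- replicate 3 (0.42, 0.0669). CD34+ arrays read 9.98, 9.83, 9.77 and 10.37 in control arrays and 10.32, 10.31, 10.66 and 10.11 in CD70TG arrays. These overlapped at control CD34+ replicate 4 and CD70TG CD34+ replicate 4, and the difference of 0.37 did not pass (adjusted p = 0.0996). A dimmer Cd44 probe differed by 0.13 in the CD34- fraction and did not pass, and with the index the main probe differed by 0.15 (adjusted p = 0.825). Of the other receptors and ligands of this role, Cd47, the ligand of SIRP-alpha that restrains phagocytosis, ranged from 11.60 to 12.33, and Selplg, the ligand of P-selectin, from 11.13 to 12.02. Neither passed in any comparison.

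Of 6 junctional and immunoglobulin-family molecules, 2 were lower in CD70TG arrays of the CD34+ fraction, F11r and Jam2, and none was called in the CD34- fraction. F11r, the gene of JAM-A, read 8.97, 8.86, 8.99 and 9.15 in CD34+ arrays of control mice and 8.24, 8.04, 8.22 and 8.07 in those of CD70TG mice. The groups did not overlap, and the difference was -0.85 ± 0.14 (adjusted p = 0.000281). Megakaryocyte and platelet markers were lower in the same comparison: 7 of 9 tested were lower and none higher (77.8% lower, against 10.6% of all features). Their median difference was -0.72, and their mean level was 8.88 to 9.16 in control and 8.33 to 8.38 in CD70TG arrays. Their part in the F11r, Fermt3 and Itgb4 differences of the CD34+ fraction was not tested. The F11r difference passed in all 13 alternative settings of the processing and whichever array was left out. In the CD34- fraction F11r read 8.77, 8.25, 8.85 and 8.85 in control arrays and 8.54, 8.09, 8.57 and 8.32 in CD70TG arrays. These overlapped at control CD34- replicate 2, and the difference of -0.30 did not pass (adjusted p = 0.127). Jam2, which encodes JAM-B and can bind JAM-C on a neighbouring cell, read 6.51, 6.18, 6.31 and 6.93 in control CD34+ arrays. In CD70TG CD34+ arrays Jam2 read 6.21, 5.99, 5.95 and 6.29, none above background. The groups overlapped, with means of 6.48 and 6.11 and a difference of -0.37 ± 0.13 (adjusted p = 0.0483). No fold is given, since only 2 of the 4 control CD34+ arrays were above background for Jam2. That call was lost in 11 of the 16 fits with 1 array left out, with adjusted p from 0.052 to 0.131, the highest without control CD34+ replicate 4 (-0.22) or CD70TG CD34+ replicate 3 (-0.32). In the CD34- fraction Jam2 read 6.49, 6.59, 6.47 and 6.68 in control arrays and 6.58, 6.20, 6.36 and 6.47 in CD70TG arrays, which overlapped. Jam3, the gene of JAM-C, read 6.88, 6.67, 6.61 and 7.06 in CD34+ arrays of control mice and 6.36, 6.22, 6.34 and 6.46 in those of CD70TG mice. They did not overlap, and the difference of -0.46 missed the threshold (adjusted p = 0.0612).

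When the probe discordance index was added as a covariate, the set of members past the test was different. In the CD34- fraction none of the 10 calls was kept, and Jam2 (-0.70, adjusted p = 0.00503), Jam3 (-0.77, 0.0303) and F11r (-0.74, 0.0316) were called lower instead. In the CD34+ fraction Robo4, F11r, Jam2, Itgb4 and Itgax were kept, Fermt3 was lost, and Itga6 (-0.65, adjusted p = 0.0046) and Jam3 (-0.89, 0.000912) were added. The 3 JAM genes were thus called lower in CD70TG arrays of both fractions in the fit with the index. In the CD34- fraction the genotypes share no range of the index: it ran from -1.48 to -0.595 in control arrays and from -0.174 to 1.21 in CD70TG arrays. There the fit carries a straight line beyond the values of each genotype, so it cannot show the difference at equal values of the index. In the CD34+ fraction the index ran from -0.934 to 0.686 in control arrays and from 0.397 to 1.14 in CD70TG arrays. These ranges met only through control CD34+ replicate 4, an array that stood apart, and the other control arrays lay at -0.406 or below. The calls with the index in the CD34+ fraction thus rest on little shared range. Since the index differs between the genotypes, the covariate and the genotype share much of their variation, and how much of either difference belongs to the transgene was not tested.

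**Figure D3:**
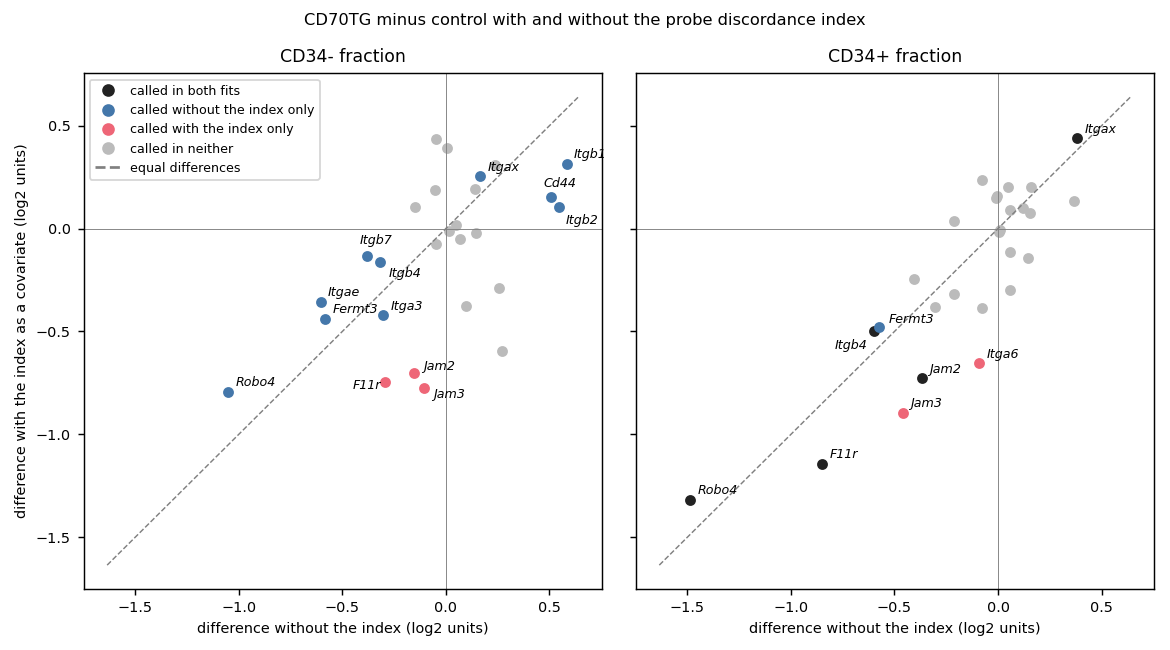
Difference between CD70TG and control arrays (log2 units) for the 27 tested members, without the index on the horizontal axis and with it on the vertical axis, in the CD34- fraction (left) and CD34+ fraction (right). Points on the dashed line have equal differences, and colours show in which fits a member was called. Itgb1, Itgb2 and Cd44 move towards 0 in the CD34- fraction (0.32, 0.10 and 0.15 with the index), and the 3 JAM genes move down.

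Between the fractions, CD34+ against CD34-, 5 of 27 members differed in control mice (18.5%, against 8.34% of all features) and 6 in CD70TG mice (22.2%, against 5.99%). Itgb5, Selp, Alcam and Robo4 were lower in the CD34+ fraction of both genotypes. In control mice these 4 made 14.8% of the members lower (4.35% of all features), and Itgb1 was higher (3.7%, against 3.98%). In CD70TG mice Itgb2 was lower too, 18.5% of the members in all (4.40% of features), and Itgax was higher (3.7%, against 1.59%). The median difference was -0.06 over the members and -0.0045 over all features in control mice, and -0.15 and -0.02 in CD70TG mice. The genotype and fraction comparisons share groups, so their values are given side by side and not set against each other.

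**Figure D4:**
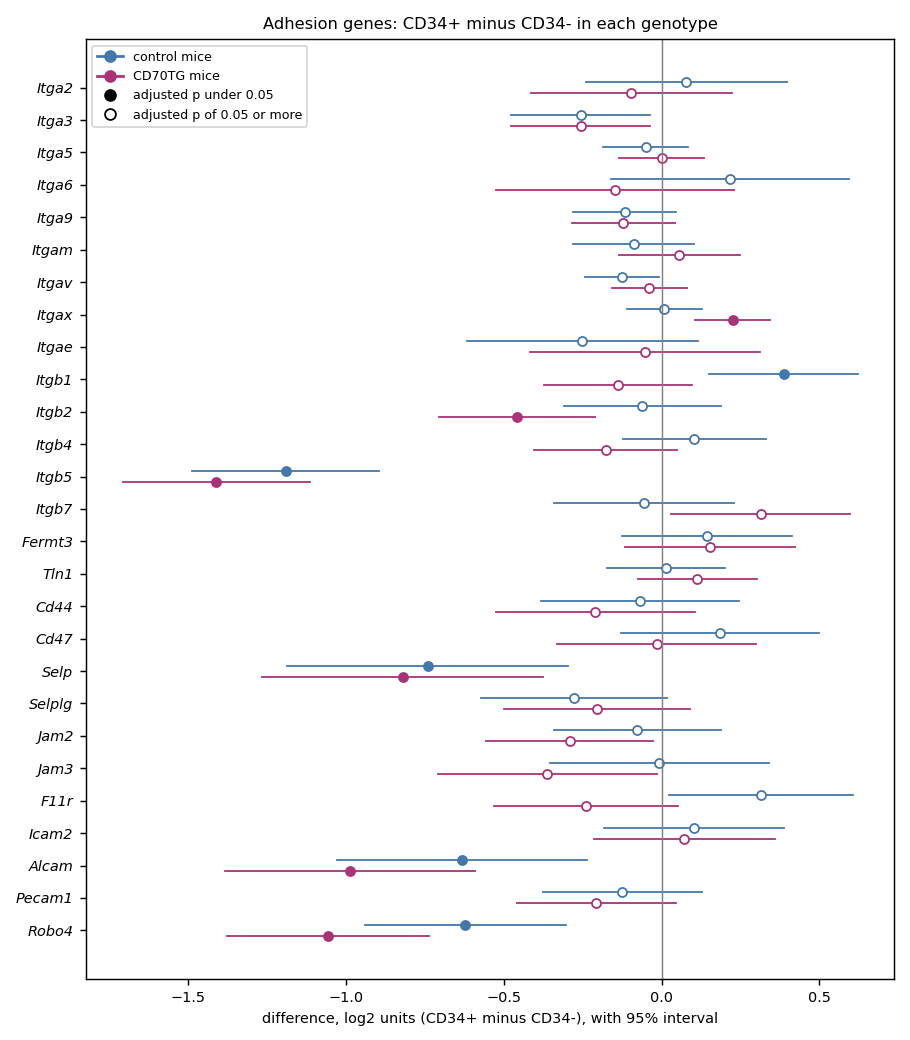
Difference between CD34+ and CD34- arrays in log2 units for the 27 tested members, in control mice (blue) and CD70TG mice (purple), with 95% intervals. Filled points passed the test. Itgb5 lies furthest to the left in both genotypes, at -1.19 and -1.41, followed in CD70TG mice by Robo4 at -1.06 and Alcam at -0.99.

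Itgb5, the beta chain that joins alpha-V in a vitronectin receptor, had the largest fraction difference of the 27 members. It read 10.13, 9.86, 10.19 and 10.15 in control CD34- arrays and 8.83, 9.12, 8.97 and 8.65 in control CD34+ arrays. In CD70TG mice the values were 9.72, 10.31, 10.29 and 10.04 in CD34- arrays and 8.66, 8.90, 8.66 and 8.50 in CD34+ arrays. The fractions were widely separated in both genotypes, and the genotypes overlapped within each fraction. The fraction differences were -1.19 ± 0.14 (adjusted p = 1.78e-05) in control and -1.41 ± 0.14 (adjusted p = 1.32e-06) in CD70TG mice. Both passed in all 13 alternative settings of the processing and whichever array was left out. Macrophage markers moved with the fraction as well, with Slc40a1 at -2.69 ± 0.15 and -4.13 ± 0.15. In CD34+ control arrays 7 of 13 were lower (53.8%, against 4.35% of all features) and 1 higher (7.69%, against 3.98%). In CD34+ CD70TG arrays 11 were lower (84.6%, against 4.40%). Of 11 neutrophil granule markers, 10 were lower in CD34+ control arrays (90.9%) and 11 in CD34+ CD70TG arrays (100%). The part of these markers in the Itgb5 result was not tested. Between the genotypes in the CD34- fraction Itgb5 differed by 0.01 (95% interval -0.29 to 0.30). Its alpha partner Itgav, a dim probe above background on 12 of 16 arrays, lay between 6.25 and 6.59 and passed in no comparison.

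Selp, the gene of P-selectin, which platelets and endothelial cells use to capture leukocytes, read 8.37, 7.43, 8.02 and 8.17 in control CD34- arrays and 7.96, 7.17, 6.98 and 6.91 in control CD34+ arrays. These groups overlapped, through the low CD34- replicate 2 and the high CD34+ replicate 1. In CD70TG mice it read 8.31, 8.06, 7.84 and 8.33 in CD34- arrays and 7.49, 7.43, 7.12 and 7.21 in CD34+ arrays, without overlap. The differences were -0.74 ± 0.21 (adjusted p = 0.0376) and -0.82 ± 0.21 (adjusted p = 0.0236). The control call was lost without control CD34- replicates 1, 3 or 4 or control CD34+ replicates 2, 3 or 4 (adjusted p from 0.0558 to 0.119). The CD70TG call was lost without CD70TG CD34- replicates 1 or 4 or CD70TG CD34+ replicates 3 or 4 (0.0665 to 0.0839). Of 9 tested platelet markers, 5 were higher in the CD34+ fraction of control mice (55.6%, against 3.98% of all features). Pf4 differed by 2.74 ± 0.17 and the platelet integrin chain Itga2b by 1.52 ± 0.15. In CD70TG mice 2 were higher (22.2%, against 1.59%), Pf4 (1.70 ± 0.17) and Itga2b (0.82 ± 0.15). Vwf was lower (-0.49 ± 0.14, adjusted p = 0.0367), 11.1% of the list against 4.40% of all features. The part of platelet markers in the Selp result was not tested. Of 11 endothelial markers, 3 were lower in CD34+ control arrays (27.3%, against 4.35% of all features). In CD34+ CD70TG arrays 1 was lower, Emcn (-1.70 ± 0.15), which is 9.09% against 4.40%.

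Alcam, an immunoglobulin-family molecule that binds CD6 and itself, read 8.50, 8.07, 8.94 and 8.10 in control CD34- arrays and 8.27, 7.67, 7.53 and 7.62 in control CD34+ arrays. Only control CD34+ replicate 1 reached into the range of the CD34- arrays. In CD70TG mice it read 8.62, 8.53, 8.43 and 8.61 in CD34- arrays and 7.79, 7.72, 7.53 and 7.20 in CD34+ arrays, widely separated. The differences were -0.63 ± 0.19 (adjusted p = 0.0455) and -0.99 ± 0.19 (adjusted p = 0.00207). The control call was lost in 11 of 16 fits with 1 array left out (adjusted p from 0.0517 to 0.116), with a difference of -0.45 without control CD34- replicate 3. The CD70TG call passed whichever array was left out and with the index (-1.0, adjusted p = 0.000821), while the control call was lost with the index (-0.70, adjusted p = 0.0535).

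Robo4, whose values are given above, was lower in the CD34+ fraction too, with control CD34- replicate 2 and control CD34+ replicate 2 nearly equal and no overlap in CD70TG mice. The differences were -0.62 ± 0.15 (adjusted p = 0.0162) in control and -1.06 ± 0.15 (adjusted p = 0.000117) in CD70TG mice. The control call was lost without control CD34- replicate 1 (-0.56, adjusted p = 0.0523), control CD34- replicate 4 (-0.55, 0.0583) or control CD34+ replicate 4 (-0.57, 0.0517), and with the index (-0.51, 0.0721). The 4 groups thus ran in the order control CD34-, control CD34+, CD70TG CD34-, CD70TG CD34+, with means of 12.07 ± 0.29 (SD, n = 4), 11.45 ± 0.17, 11.02 ± 0.25 and 9.96 ± 0.21. The control CD34+ and CD70TG CD34- arrays, which were not compared by a test, overlapped (11.28 to 11.68 and 10.72 to 11.33).

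Itgb1 was 0.39 ± 0.11 higher in CD34+ than in CD34- control arrays (adjusted p = 0.0392), and its values, given above, did not overlap. The call was lost in 9 of 16 fits with 1 array left out, with adjusted p from 0.0505 to 0.133 and a difference of 0.27 without control CD34+ replicate 4. In CD70TG mice the difference was -0.14 (95% interval -0.37 to 0.10). In CD70TG mice Itgb2 was lower in the CD34+ than in the CD34- fraction (-0.46 ± 0.12, adjusted p = 0.0231), without overlap, and that call was lost when any of 6 CD70TG arrays was left out (CD34- replicates 1, 3 and 4, CD34+ replicates 1, 2 and 4, adjusted p from 0.062 to 0.0807). In the same comparison 11 of 13 macrophage markers and all 11 neutrophil granule markers were lower (84.6% and 100%, against 4.40% of all features). Their part in the Itgb2 result was not tested. In control mice the Itgb2 difference was -0.06 (95% interval -0.31 to 0.19). There 7 macrophage and 10 neutrophil markers were lower (53.8% and 90.9%, against 4.35% of all features), and their part was not tested either. Itgax was 0.23 ± 0.06 higher in CD34+ than in CD34- CD70TG arrays (adjusted p = 0.0197) without overlap, and this was lost without CD70TG CD34- replicate 1 (0.18, adjusted p = 0.0778) or CD70TG CD34+ replicate 3 (0.19, 0.079).

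**Figure D5:**
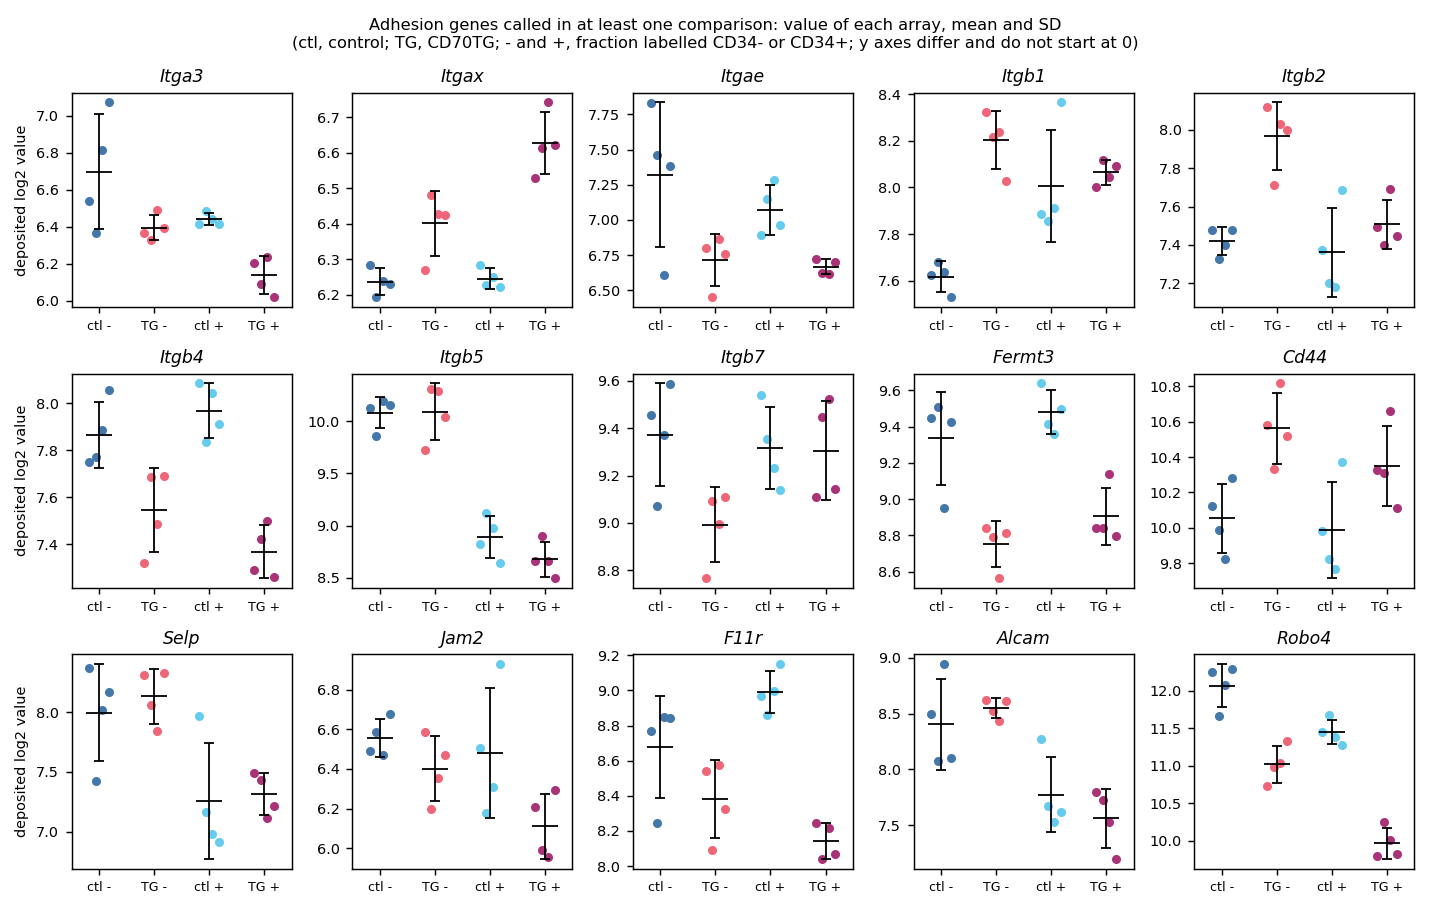
Deposited log2 value of each array for the 15 members called in at least 1 comparison, by genotype (ctl, control; TG, CD70TG) and fraction (- or +), with the group mean and SD. The axes differ between panels and do not start at 0. Robo4 has group means from 12.07 in control CD34- arrays to 9.96 in CD70TG CD34+ arrays, and Itgb5 separates by fraction.

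Leaving out both arrays that stood apart, a setting chosen after seeing the data, ended 6 of the calls above. These were Itga3 (-0.28, adjusted p = 0.0765) and Itgax (0.14, 0.114) between genotypes in the CD34- fraction and Jam2 (-0.22, 0.0961) in the CD34+ fraction. Between the fractions of control mice they were Itgb1 (0.27, 0.138), Selp (-0.63, 0.111) and Alcam (-0.58, 0.11).

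Whether the transgene acted differently in the 2 fractions was tested directly. None of 27 members passed (0.354% of all features did). Without adjustment, limma's test at the same threshold would have called 4 members, against 7.38% of all features. These were Itgb1 (-0.52 ± 0.16, adjusted p = 0.29), F11r (-0.55 ± 0.20, 0.451), Itgax (0.22 ± 0.08, 0.493) and Itgb2 (-0.40 ± 0.17, 0.592). A member called in 1 fraction alone is therefore not shown to differ between the fractions. For Robo4 the difference of the effects was -0.43 (95% interval -0.89 to 0.02).

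The remaining members either did not pass or could not be tested. Of the 27 tested, 12 were called in none of the 4 pairwise comparisons: the alpha chains Itga2, Itga5, Itga6, Itga9, Itgam and Itgav, and Tln1, Cd47, Selplg, Jam3, Icam2 and Pecam1. Itga2, a collagen receptor chain, lay between 6.51 and 7.25. Itga5 and Itga9, whose heterodimers bind fibronectin and tenascin, stayed within 6.48 to 6.81 and 6.39 to 6.77. Icam2, a ligand of beta-2 integrins, lay between 10.31 and 10.91, and Pecam1, an endothelial and blood cell molecule that binds itself, between 8.04 and 8.78. Pecam1 was 0.24 higher in CD70TG CD34- arrays (95% interval -0.01 to 0.49). The probes of Itga1, Itga4, Itga7, Cdh5 and all 4 probes of Cdh2 (N-cadherin) were at background on every array, with values from 5.69 to 6.36, and the Itgb3 probe was above background on 1 array. A probe at background does not show that the gene is silent.

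Genes that work with these members were read from lists. Of 5 tested integrin subunits outside the members, 3 were higher in CD70TG CD34- arrays (60%, against 16% of all features). The list median was 0.55, against 0.02 over all features, and none of the 5 was called in the CD34+ fraction. Itgad, a further alpha partner of Itgb2, rose by 1.49 ± 0.17 (adjusted p = 5.94e-06), from 7.06 to 8.55, and its genotype effect differed between fractions (-1.18 ± 0.25, adjusted p = 0.0419). In that test of the difference between effects, 10 of 13 macrophage markers were called in the same direction (76.9%, against 0.354% of all features). The part of macrophage markers in the Itgad result was not tested. Itga2b rose by 0.55 ± 0.15 (adjusted p = 0.00904), and the beta-2-like chain Itgb2l by 0.63 ± 0.21 (0.0354). Among 28 genes of integrin activation and adhesion complexes, 7 were higher and 2 lower in CD70TG CD34- arrays (25% and 7.14%, against 16% and 11.8% of all features), and the list median was 0.018 against 0.0215. None was higher and 2 were lower in CD70TG CD34+ arrays (7.14%, against 10.6%). The actin cross-linker Actn1 rose by 0.73 ± 0.14, and Rsu1 and Lims1, which belong to the integrin-linked kinase complex, rose by 1.27 ± 0.26 and 1.74 ± 0.36. In the CD34+ fraction the focal adhesion genes Vcl (-0.46 ± 0.10) and Zyx (-0.49 ± 0.11) were lower.

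Of 15 tested ligands of integrins, 2 were higher and 3 lower in CD70TG CD34- arrays (13.3% and 20%, against 16% and 11.8% of all features). In CD70TG CD34+ arrays 1 was higher and 3 lower (6.67% and 20%, against 7.59% and 10.6%), and the list medians were -0.06 and -0.02. Vcam1, the counter-receptor of alpha-4 beta-1, was higher by 2.73 ± 0.24 and 0.89 ± 0.24; it is also a macrophage marker of the list above. The basement membrane collagens Col4a1 (-0.86 ± 0.10 and -1.11 ± 0.10) and Col4a2 (-1.01 ± 0.16 and -1.12 ± 0.16) were lower in both fractions. Of 31 other surface adhesion genes of stem and endothelial cells, 3 were higher and 10 lower in the CD34- fraction (9.68% and 32.3%, against 16% and 11.8% of all features), and 2 were higher and 11 lower in the CD34+ fraction (6.45% and 35.5%, against 7.59% and 10.6%). Esam, a junctional molecule of stem cells and endothelium, was among the lower ones in both fractions, and so was Emcn, an endothelial sialomucin (-0.64 ± 0.15 and -1.33 ± 0.15). Cd53 (1.22 ± 0.17) and Cd93 (0.76 ± 0.14) were among the higher ones in the CD34- fraction. Cd63 was lower in the CD34+ fraction (-0.80 ± 0.13).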

How the data were processed

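The authors deposited log2-like probe values for 16 arrays, and per the labels' protocols the RNA was amplified in 2 rounds and labelled with biotin. How they were background-corrected and normalized, and to which base the logarithm was taken, is not stated in the sources used; base 2 is assumed. A non-normalized table was not used, since its 32 columns of per-sample values carry names that match no sample label. Of 25697 probes, 23978 have 1 gene symbol in the platform annotation, 0 have several and 1719 have none, and 23962 were matched by gene number.

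A probe entered if it exceeded the 95th percentile of the array's background on at least 4 arrays (15550 probes), and the brightest probe stood for a gene. limma 3.58.1 in R 4.3.3 fitted 4 group means (12 residual degrees of freedom, trended eBayes), with Benjamini-Hochberg adjustment over 11850 features and a threshold of 0.05. The fit was tested on simulated data. Members and lists were chosen with earlier results of these data known. Members called in any comparison are given by array, the others by range, and up to 3 called genes of a list per comparison are named. Replicate numbers were not used as pairs, since not every same-numbered pair correlated above 0.1. Alternatives changed the dim-probe filter, the probe per gene, the arrays fitted, the block, weights, a minimum fold, the scaling and the index, and left out arrays. Promoters come from RefSeq (GRCm38.p6).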

Additional observations from a re-analysis of the deposited data

Results flagged for a closer look

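In 6 of 108 groups of 4 arrays, 1 array lay far from the other 3 (its gap to the nearest, over the group's range, exceeded Dixon's 95% critical value); chance gives about 1 in 20 groups. Itga2 in control CD34- replicate 2 was 6.51 (others 6.97 to 7.06), and F11r in the same array was 8.25 (others 8.77 to 8.85). Itgb1 in control CD34+ replicate 4, an array that stood apart over all probes, was 8.36 (others 7.86 to 7.91). Fermt3 was 8.95 in control CD34- replicate 3 (others 9.43 to 9.51) and 9.14 in CD70TG CD34+ replicate 3 (others 8.80 to 8.84). Tln1 in CD70TG CD34+ replicate 3 was 6.60 (others 6.35 to 6.38).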

How the results depend on the processing

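Of the 27 calls, none changed direction under any alternative, 13 passed in every fit with 1 array left out and 6 passed in all settings: F11r and Robo4 between the genotypes in the CD34+ fraction, Itgb5 between the fractions of both genotypes, and Alcam and Robo4 between the fractions of CD70TG mice. With the index 12 calls were kept and 15 lost.

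The 10 members called between the genotypes in the CD34- fraction became 5 with only the arrays compared and 1 with a minimum fold of 1.2. With the index 3 were called, Jam2, Jam3 and F11r, none of them among the 10. The count was 6 to 10 with 1 array left out (6 without control CD34- replicates 3 or 4 or CD70TG CD34- replicate 3). The 6 called in the CD34+ fraction became 11 with array weights, 2 with the minimum fold and 5 to 7 with 1 array left out. The 5 called between fractions of control mice became 2 with only the arrays compared, 1 with the minimum fold, 3 with equal array medians (1 higher and 2 lower, against 1 and 4), 1 with the index, 2 without both arrays that stood apart and 1 to 5 with 1 array left out (1 without control CD34- replicate 1 or control CD34+ replicate 4, 2 without control CD34- replicate 4, and 3 without control CD34- replicate 3, control CD34+ replicates 2 or 3, CD70TG CD34- replicate 3 or CD70TG CD34+ replicates 1, 2 or 3). The 6 called between fractions of CD70TG mice became 3 with the minimum fold and 3 to 6 with 1 array left out (3 without CD70TG CD34- replicate 1). No setting called a member for the difference between the effects in limma's test, where 4 had an unadjusted p below 0.05. The cause of these changes was not tested.

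Over all features, the 3291 calls between genotypes in the CD34- fraction became 1081 with the minimum fold and 641 with the index, and their split of 1891 higher and 1400 lower became 1617 and 2001 with quantile normalization. The 2154 calls in the CD34+ fraction became 3318 with weights, 545 with the minimum fold and 999 with the index. The 988 between control fractions became 488 with only the arrays compared, 211 with the minimum fold, 630 without control CD34- replicate 4 and 639 without control CD34+ replicate 4. The 710 between CD70TG fractions became 1421 with weights and 286 with the minimum fold, and the 42 for the difference between effects became 19.

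Replicate numbers did not pair the arrays in every group: 10 of 24 same-numbered pairs correlated above 0.1 (median 0.0515, range -0.335 to 0.653), though 5 of the 6 pairs of replicate 2 did (0.0896 to 0.653). For replicates 1 to 4, the 2 fractions of CD70TG mice correlated at 0.443, 0.653, -0.0302 and 0.158. Those of control mice correlated at 0.0627, 0.109, -0.307 and -0.0796. A pairing of fractions within 1 genotype was not fitted, since the block below spans all 4 groups. With the replicate block as a fixed term the member counts were 8, 7, 4, 6 and 0, with the calls of Itgax (adjusted p = 0.05) and Itgb7 (0.0622) between genotypes in the CD34- fraction and of Itgb1 (0.0555) between control fractions lost, and as a random block (correlation 0.0247) 10, 7, 5, 6 and 0. The number of arrays and the background level (6.30 to 6.50) limit what can be said of Itga3, Itgax, Itgam, Itgav, Jam2 and Tln1, and the logarithm's base, taken as 2, sets every fold.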
